A study of Glycine max with 12 samples.

Results

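Soybean (Glycine max) roots labelled as highly colonized by the fungus Glomus aggregatum (Ga-H) were compared with roots labelled as having no fungus (NM), across all genes measured. The comparison rests on 6 of the 12 root RNA-seq libraries of the study, 3 labelled Ga-H and 3 labelled NM, chosen by their labels alone. The remaining libraries are roots with G. aggregatum at low colonization (Ga-L) and roots with Rhizophagus irregularis (Ri), 3 libraries each. They shared in the choice of genes tested, the scaling, the estimate of the spread between replicates and the mean level of each gene. Otherwise they are used only to set Ga-H beside them. The labels give no soybean cultivar, plant age, time after inoculation or measured degree of colonization, and do not tell whether replicates were grown apart. The p-values below therefore reflect variation among these libraries, some of which may be technical.

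Arbuscular mycorrhizal fungi enter the root cortex and form branched structures, the arbuscules, inside cortical cells. There the fungus delivers phosphate and other minerals and the plant supplies sugars and lipids in return. Colonized roots are known to switch on genes for phosphate uptake, lipid supply and the membrane that surrounds the arbuscule, several of which are nearly silent in roots without a fungus. The study's title places its data in the question of how sugar metabolism and export relate to growth benefits from this symbiosis.

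The deposited tables give genes by soybean ID only, and the RefSeq gene table used here carries no ID of that kind, so 0 of 49551 genes could be paired with a name. No gene is therefore given a name or a function, none of the 28 planned lists (transport, symbiosis, defence, tissue markers and others) could be matched, and the root origin of the samples could not be checked against marker genes. The response is described by its size, by the amounts of RNA it moved, and by the position, length and level of the genes. Total expected counts ranged from 10182200 to 11054762 per library.

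More genes were higher than lower in Ga-H against NM, and the higher ones changed further. Of 36323 genes tested, 2270 were higher in Ga-H than in NM, which is 6.25% of the genes tested, and 679 were lower, which is 1.87%, by the quasi-likelihood test of edgeR with p-values adjusted by Benjamini-Hochberg (threshold 0.05). All Ga-H libraries lay above all NM libraries in FPKM for 2268 of the higher genes and below them for 678 of the lower ones, which holds for 19.1% and 10.1% of all tested genes, and the test used the same libraries. A change of at least 2-fold was reached by 1790 of the higher genes and 352 of the lower ones. At 4-fold the numbers were 1097 and 75, at 8-fold 768 and 25, and at 16-fold 545 and 9. Among the higher genes the middle 50% of log2 fold changes ran from 1.1 to 3.83, and among the lower ones from -1.42 to -0.73. The numbers called depended on libraries outside the comparison. Without Ri replicate 1 they were 3073 higher and 1374 lower, and with only Ga-H and NM fitted 2732 and 1394. The median log2 fold change over all tested genes was 0.003, a value that TMM scaling sets close to 0, so fold changes are relative to the bulk of genes. In whole roots, more cells of a type and more RNA per cell cannot be told apart.

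The genes that rose were scarce in uncolonized roots, and those that fell were comparatively abundant there. The median level of the 2270 higher genes was 9.8 FPKM in Ga-H and 1.84 FPKM in NM, where FPKM is the deposited level per length of transcript and library size. The 679 lower genes had a median of 8.13 FPKM in Ga-H and 16.4 FPKM in NM. Over all tested genes the medians were 6.31 FPKM in Ga-H and 5.8 FPKM in NM. These medians describe genes chosen on the same libraries and are no independent test. The plot of fold change against gene level shows the long upper tail and the short lower one.

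**Figure D1:**
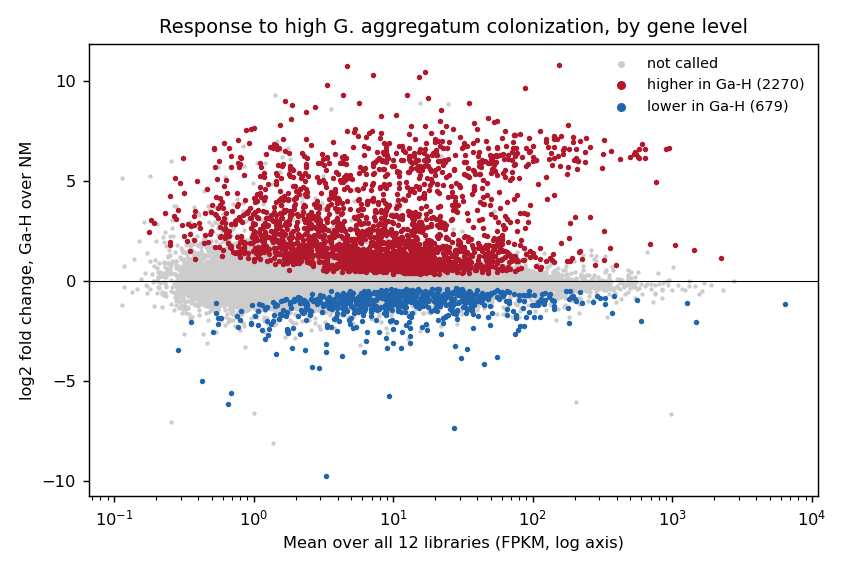
Each point is 1 tested gene, placed by its mean FPKM over all 12 libraries (log axis) and its log2 fold change in Ga-H over NM; red and blue mark the 2270 higher and 679 lower genes past the edgeR threshold and grey the rest. Of the higher genes 402 rose at least 32-fold, while 6 of the lower genes fell that far.

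The raised genes took up a several times larger part of the messenger pool in colonized roots. Together the 2270 genes held 9.42%, 9.34% and 7.99% of all counts in the 3 Ga-H libraries, against 2.43%, 2.25% and 2.57% in the 3 NM libraries. The 679 lowered genes held 3.1%, 3.77% and 3.81% of counts in Ga-H, against 8.02%, 7.01% and 7.75% in NM. Neither pair of groups overlapped, which the choice of the genes on these libraries fixes. Put as differences of Ga-H from NM, the share of the raised genes rose by 6.5 percentage points of the pool and that of the lowered genes fell by 4.03.

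Gain and loss were distributed over the genes very differently. Genes were ranked here by the difference in their share of counts, which is not the ranking by FPKM used further on. The 10 raised genes with the largest differences made up 10.9% of the gain, and the first 100 made up 39.4%. Among lowered genes a single gene made up 35.2% of the loss, the first 2 made up 42.8%, the first 10 made up 55% and the first 100 made up 80.1%. The single gene is Glyma.09G092700.Wm82.a2.v1, described further on, whose call was lost when any 1 of the 6 libraries was left out. The rise was thus spread over many genes, while 10 genes made up most of the fall in RNA.

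**Figure D2:**
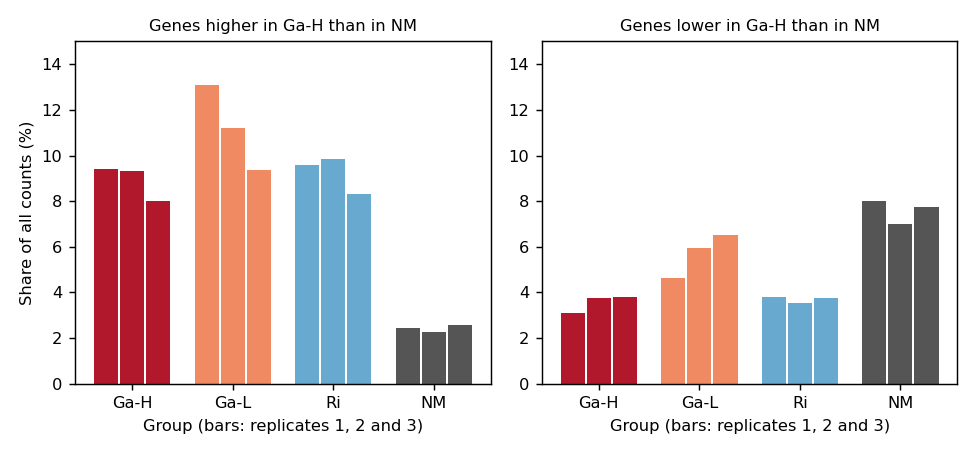
Bars give the percentage of all counts in each library (3 per group) that fell on the 2270 genes higher (left) and the 679 genes lower (right) in Ga-H than in NM. Raised genes hold 7.99% to 9.42% in Ga-H and 2.25% to 2.57% in NM, and lowered genes 3.1% to 3.81% in Ga-H and 7.01% to 8.02% in NM. In Ga-L raised genes hold 9.36% to 13.1% and lowered genes 4.63% to 6.52%, and in Ri 8.31% to 9.83% and 3.52% to 3.79%.

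The 100 most abundant genes also held a smaller share of the transcript pool in Ga-H roots than in NM roots. The 100 most abundant genes of each library held 10%, 11.2% and 11.3% of counts in Ga-H, against 13.8%, 13.5% and 14.5% in NM. The means were 10.8 ± 0.726% in Ga-H and 13.9 ± 0.515% in NM (SD, n = 3 each). Much of this difference lay in 1 gene, Glyma.09G092700.Wm82.a2.v1. It held 0.915%, 1.44% and 1.31% of counts in Ga-H, against 2.59%, 2.41% and 2.91% in NM. At least 1 FPKM was reached by 33636, 33639 and 33553 genes in Ga-H, against 32650, 32528 and 32731 in NM. Both measures separated the groups without overlap (exact permutation test, 2-sided p = 0.1 in each case, which is the lowest value 3 libraries against 3 allow).

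Genes were ranked by their change in mean FPKM among the 2173 higher and 672 lower genes that passed the test, did not overlap between replicates and averaged 1 FPKM or more where they were higher, and the first 2 in each direction are given by ID. The largest gain was that of Glyma.17G230500.Wm82.a2.v1, a short gene of 578 bases on chromosome 17, per its ID. Its level was 2626.14, 2346.22 and 2203.96 FPKM in the Ga-H libraries, against 1011.6, 1122.36 and 1045.85 FPKM in the NM libraries. All Ga-H libraries lay above all NM libraries, and the gene was already abundant without a fungus. On the log2 scale it rose by 1.14 (SE 0.18), with an edgeR adjusted p of 0.00159, and the call was lost only with limma on log2(FPKM + 1) without a filter on low values (adjusted p = 0.39), over all alternatives from 1.16e-11 to 0.39.

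The next gain, of Glyma.13G028500.Wm82.a2.v1 on chromosome 13, started from a much lower level in NM. Its level was 915.6, 1265.4 and 1060.76 FPKM in Ga-H, against 5.02, 6.14 and 20.01 FPKM in NM. On the log2 scale it rose by 6.66 (SE 0.74), with an edgeR adjusted p of 0.000169. The highest NM value, in NM replicate 3, was several times the other two, and without that library the log2 fold change was 7.57.

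Such rises were common among the genes that gained most. Of the 10 genes with the largest gain in FPKM, 6 had log2 fold changes of 4 or more and the other 4 had log2 fold changes below 2. The 6 averaged between 628 and 1080 FPKM in Ga-H and between 5.92 and 22.5 FPKM in NM. The 10 genes lay on 8 chromosomes. The largest gains in FPKM thus included both genes at modest levels in uncolonized roots and genes that were abundant with and without the fungus.

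The largest loss was that of Glyma.09G092700.Wm82.a2.v1, the most abundant gene in all 6 Ga-H and NM libraries. It took 0.915%, 1.44% and 1.31% of counts in Ga-H, against 2.59%, 2.41% and 2.91% in NM. All Ga-H libraries lay below all NM libraries, with Ga-H replicate 1 the lowest. It fell by 1.14 on the log2 scale (SE 0.30), with an edgeR adjusted p of 0.0371, and 11 of 22 alternatives lost the call (adjusted p from 5.35e-05 to 0.783), among them leaving out any 1 of the 6 Ga-H and NM libraries. In those 6 fits its log2 fold change lay between -1.28 and -0.97.

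Glyma.15G128700.Wm82.a2.v1, on chromosome 15, lost the next largest amount. Its level was 532.01, 710.71 and 828.76 FPKM in Ga-H, against 3821.76, 1762.46 and 2749.58 FPKM in NM. The NM libraries varied about their mean by more than the Ga-H libraries did, but every NM value was above every Ga-H value. It fell by 2.03 on the log2 scale (SE 0.35), with an edgeR adjusted p of 0.00328, and every alternative kept the call, with adjusted p from 1.44e-08 to 0.0413. Among the 10 genes with the largest loss in FPKM, log2 fold changes ran from -2.12 to -0.74. These genes still averaged 69.3 to 4260 FPKM in Ga-H, against 295 to 9220 FPKM in NM. None of the 10 lost 4 or more on the log2 scale, so these 10 stayed on. A ranking by loss of FPKM picks genes abundant in NM, so their abundance there is no separate result.

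**Figure D3:**
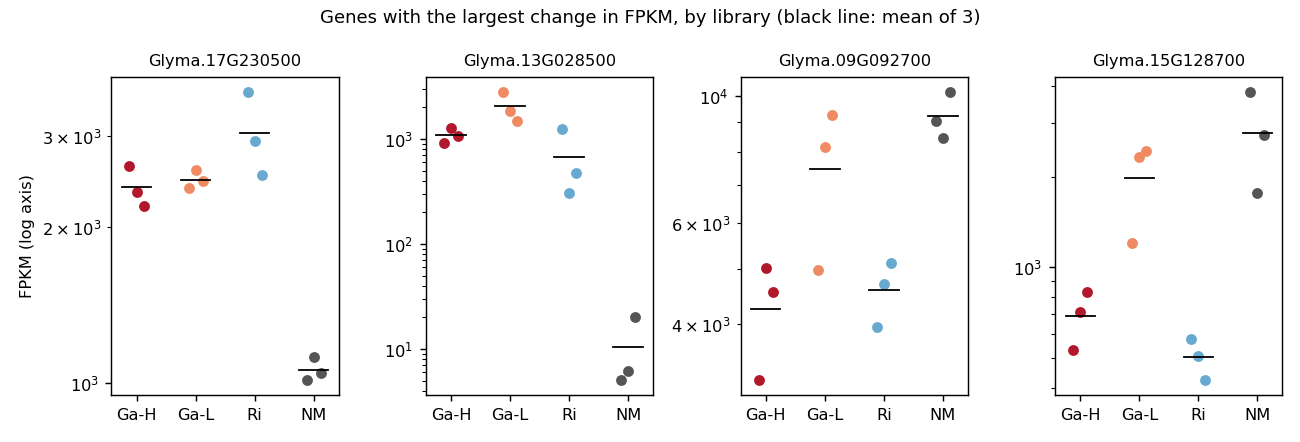
Points are FPKM values of single libraries (log axis, 3 per group) and black lines the group means for the 2 genes with the largest gain and the 2 with the largest loss in Ga-H over NM. The second gene from the left averages 1080 FPKM in Ga-H and 10.4 in NM, and the rightmost gene is low in Ga-H and Ri and higher in Ga-L and NM.

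The share of genes that responded grew with their level. Among tested genes with a mean under 1 FPKM over the 12 libraries, 4.3% were higher and 0.549% lower in Ga-H. Between 1 and 10 FPKM the shares were 5.49% and 1.4%, and between 10 and 100 FPKM they were 7.75% and 2.81%. At 100 FPKM or more, 95 of 923 genes were higher, which is 10.3%, and 42 were lower, which is 4.55%. Counting error is smaller at higher levels, and its part in this order was not tested.

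In the most abundant class the higher genes also changed most. Their median log2 fold change was 6.02, against 1.68 between 10 and 100 FPKM, 1.89 between 1 and 10 FPKM and 2.91 under 1 FPKM. The level is a mean over libraries of which 9 of 12 were colonized, so a gene can enter the top class through its rise. The median of the lower genes was -0.98 in the top class and -2.06 under 1 FPKM.

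Among genes called higher, short ones had larger fold changes than long ones. Tested genes were divided by length into 5 equal classes. In the shortest class, up to 1115 bases, 6.96% were higher with a median log2 fold change of 3.36. In the longest class, above 2596 bases, 5.25% were higher with a median of 1.27. The medians of the classes between were 2.2, 1.75 and 1.65, in order of length. The medians of the lower genes were -1.25, -1.08, -1.01, -0.84 and -0.89 from the shortest to the longest class. Genes for which the tables list a single transcript were higher in 7.03% of cases, with a median log2 fold change of 2.39, and genes with 2 listed transcripts in 5.14%, with a median of 1.42. Length and number of listed transcripts were not separated from each other or from level. The medians are of called genes only. At a given FPKM a shorter gene has fewer counts and needs a larger change to be called. The part of this in the order by length was not tested.

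**Figure D4:**
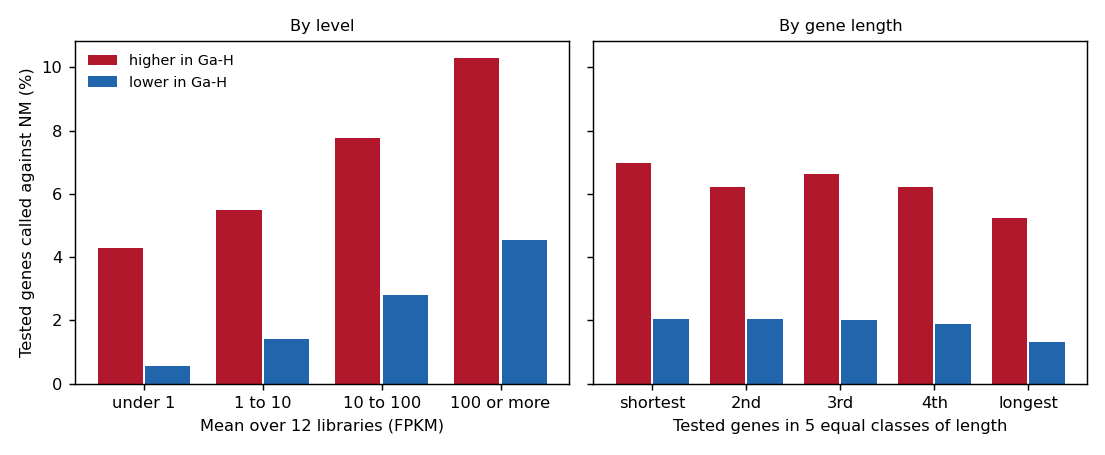
Bars give the percentage of tested genes called higher (red) or lower (blue) in Ga-H than in NM by edgeR, by mean level over 12 libraries (left) and by 5 equal classes of gene length (right). The share called higher climbs from 4.3% under 1 FPKM to 10.3% at 100 FPKM or more, and is 6.96% in the shortest and 5.25% in the longest genes.

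The response was spread over all 20 chromosomes, as given by the gene IDs. The share of tested genes called higher ranged from 4.74% on chromosome 7 to 7.66% on chromosome 18. The share called lower ranged from 1.36% on chromosome 5 to 2.69% on chromosome 2. Raised genes often had a raised neighbour: for 298 of 2270, or 13.1% (95% Wilson interval 11.8% to 14.6%), the tested gene with the next ID was also higher, against 6.25% of all tested genes. There were 40 runs of at least 3 such genes, which held 133 genes, and the longest had 5. For lowered genes the share was 4.12% (2.87% to 5.9%), against 1.87% of all tested genes, with no run of 3. Neighbouring genes can be near-identical copies between which the estimated counts divide reads, so their calls are not independent and the intervals cover counting error only.

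Some genes passed from no count to a count in every library. Over all 49551 genes, 266 had no rounded count in any NM library and at least 1 in each Ga-H library, and 83 had the opposite pattern. Most of these had too few counts to be tested. The tested genes included 72 without any NM count and 4 without any Ga-H count. Of the tested genes without any NM count, 51 of 72 were called higher. A gene silent in NM passed the filter on low counts only through a colonized group, so this share is no measure of the response.

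NM replicate 3 held more RNA of the strongly raised genes than the other uncolonized libraries. Of the raised genes, 309 had a log2 fold change of at least 4 and a mean of at least 10 FPKM in Ga-H. Their level, as a percentage of each gene's mean level in Ga-H, had a median of 3.3% in NM replicate 3 (quartiles 2.25% and 4.41%), 0.516% in NM replicate 2 (0.24% and 1.2%) and 0.229% in NM replicate 1 (0 and 1.52%). In NM replicate 3, 299 of the 309 genes were listed above 0, against 252 in NM replicate 2 and 223 in NM replicate 1. Across all tested genes the log2 levels of NM replicate 3 correlated with the Ga-H libraries at 0.904 to 0.919, and those of NM replicates 1 and 2 at 0.866 to 0.887, while NM libraries correlated with each other at 0.965 to 0.970.

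The numbers of called genes were also taken from fits that each left out 1 NM library. Such a fit also changes the genes tested and the estimate of the spread, so the part of NM replicate 3 was not isolated. Without NM replicate 3, 1761 genes were higher and 418 lower in Ga-H, against 1654 and 294 without NM replicate 1, and 1575 and 497 without NM replicate 2. Genes that rose at least 16-fold numbered 556 without NM replicate 3, 532 without NM replicate 1 and 509 without NM replicate 2, and 545 with all libraries.

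Most raised genes, but only a minority of the lowered ones, were called whichever Ga-H or NM library was left out. Of the 2270 raised genes, 1387, or 61.1%, were called in all 6 fits that left out 1 Ga-H or NM library, and of the 679 lowered genes 190, or 28%. The raised genes called in all 6 had a median log2 fold change of 2.95, and the others one of 1.2. For the lowered genes these medians were -1.19 and -0.95. A fit with 1 library less calls fewer genes in any case. The lowered genes numbered 270 without Ga-H replicate 1, 278 without Ga-H replicate 2 and 598 without Ga-H replicate 3.

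Ga-H roots were then set against the other colonized roots directly, in contrasts that hold no NM library. Against Ri, 6 of 36323 genes differed, or 0.0165% (3602 at an unadjusted p under 0.05, edgeR). All 6 were among the raised genes. None of the 679 lowered genes differed from Ri in edgeR (126 at an unadjusted p under 0.05), while DESeq2 called 16 and limma on log2(FPKM + 1) called 1. The count of 6 depended on single libraries. It was 0 without Ri replicate 3, Ga-H replicate 1 or Ga-H replicate 2, and 2 without Ga-H replicate 3. Without Ri replicate 1, 2305 genes differed between Ga-H and Ri, 67 of the lowered genes among them.

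Against roots with low colonization by the same fungus, the genes that Ga-H lowered stood out from those it raised. Of the 679 lowered genes, 96, or 14.1%, were also lower in Ga-H than in Ga-L, against 169 of all tested genes, or 0.465% (edgeR's quasi-likelihood test, adjusted p under 0.05 over all genes). Of the 2270 raised genes, 18 were higher and 6 lower in Ga-H than in Ga-L, where 0.374% and 0.465% of all tested genes were called in these directions. On the log2 scale, Ga-H minus Ga-L had a median of -0.65 over the lowered genes, -0.26 over the raised genes and 0.01 over all tested genes. The lowered genes were chosen for low values in the same Ga-H libraries, which by itself biases their contrast with any other group towards lower values in Ga-H. Over the same 679 genes Ga-H minus Ri had a median of -0.05.

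Levels by library show how the groups lined up for these genes. For the 96 genes lower in Ga-H than in both NM and Ga-L, the library medians were 7.62 to 9.06 FPKM in Ga-H, 15.8 to 20.2 in Ga-L, 8.12 to 9.62 in Ri and 14.7 to 19.5 in NM. The levels in Ri entered neither contrast that chose these genes, although the Ri libraries shared in the filter, the scaling and the estimate of the spread. Their medians overlapped those of Ga-H and lay below all those of Ga-L and NM. The median log2 difference of Ga-H over the 96 genes was -1.22 from NM, -1.26 from Ga-L and -0.05 from Ri. In the pool of counts the 679 lowered genes held 3.56 ± 0.396% in Ga-H, 5.7 ± 0.97% in Ga-L, 3.68 ± 0.144% in Ri and 7.59 ± 0.523% in NM (SD, n = 3 each).

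The count of 96 rested on few libraries. It was 0 without Ga-H replicate 1, Ga-H replicate 2 or Ga-L replicate 2, at most 2 without NM replicate 3 or Ga-L replicate 3, and 0 with a block for replicate number. It was 405 with DESeq2, 461 with only the compared groups fitted and 508 without Ri replicate 1. It was 62 without NM replicate 1, 63 without Ga-H replicate 3, 186 without Ri replicate 2 and 183 when Ga-L replicate 1 was left out.

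**Figure D5:**
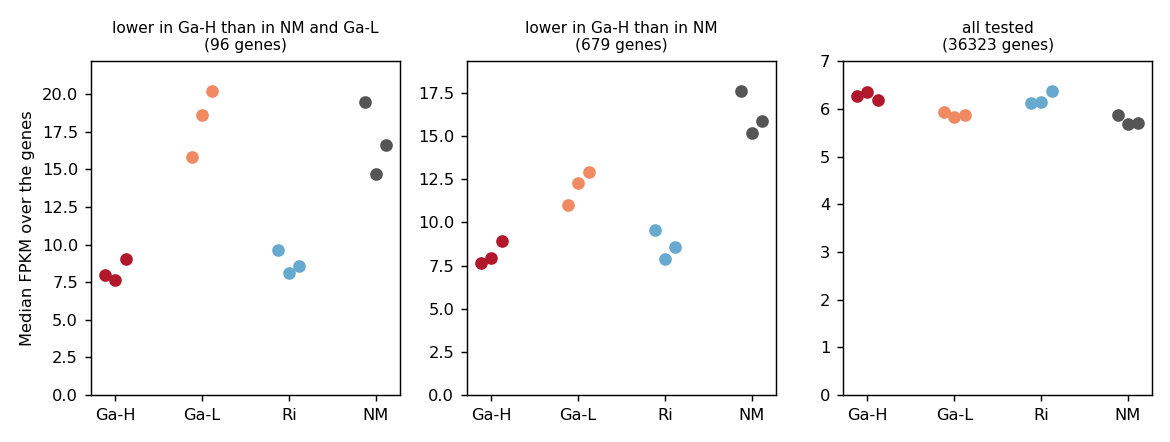
Points are medians of FPKM over a set of genes in single libraries (3 per group), for the 96 genes lower in Ga-H than in both NM and Ga-L, the 679 genes lower in Ga-H than in NM, and all 36323 tested genes. For the 96 genes Ga-H (7.62 to 9.06) and Ri (8.12 to 9.62) lie below Ga-L (15.8 to 20.2) and NM (14.7 to 19.5).

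The genes given by ID had no difference from the other colonized groups past the threshold. Glyma.15G128700.Wm82.a2.v1 came nearest, with 532.01, 710.71 and 828.76 FPKM in Ga-H and 1202.7, 2322.94 and 2428.5 FPKM in Ga-L, a log2 difference of -1.60 (SE 0.34, adjusted p = 0.0541, edgeR). It passed under 6 of 22 alternatives, and its adjusted p ran from 0.000152 to 0.219. In Ri it had 579.67, 509.92 and 422.32 FPKM (log2 difference of Ga-H from Ri 0.45, adjusted p = 0.667, edgeR). Glyma.13G028500.Wm82.a2.v1 had 2823.43, 1829.48 and 1483.79 FPKM in Ga-L, all above its Ga-H values, and 1239.59, 307.64 and 478.84 FPKM in Ri, which overlapped them. On the log2 scale Ga-H minus Ga-L was -0.99 (SE 0.58, adjusted p = 0.364, edgeR) and Ga-H minus Ri was 0.66 (SE 0.58, adjusted p = 0.709, edgeR).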

How the data were processed

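The authors deposited 1 table per library with, per the file headers, a gene length, an expected count (an estimate of reads per gene) and an FPKM value, already scaled by length and library size. Bowtie2, HISAT and RSEM are listed, per the submitters' processing notes, with neither versions nor roles, and no source used here states strand handling or read length. Only genes above 0 are listed, and an unlisted gene was taken as 0. Reads that match several genes are divided among them, so near-identical copies have uncertain values.

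Expected counts were rounded and tested in R 4.3.3 with edgeR 4.0.16 (default low-count filter by group, TMM scaling, robust quasi-likelihood fit of all 12 libraries with 1 mean per group, 8 residual degrees of freedom, biological coefficient of variation 22.4%), with Benjamini-Hochberg adjustment over 36323 genes. Standard errors are the log2 fold change divided by the square root of F. The fit was tested on simulated data. Alternatives used other scalings, no filter, DESeq2 1.42.0, limma 3.58.1 on log2(FPKM + 1) or log2(FPKM + 0.1), a replicate block, the compared groups alone, and each of 12 libraries left out. Genes printed by ID are the first 2 in each direction by change in mean FPKM among genes past the threshold that did not overlap between replicates and averaged 1 FPKM or more where they were higher. The RefSeq table (Glycine_max_v4.0, 59048 rows) matched 0 IDs. The comparison, lists and rules were chosen with earlier results of these data known. Intervals cover counting error only.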

Additional observations from a re-analysis of the deposited data

Results flagged for a closer look

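Of the 679 genes lower in Ga-H than in NM, 96 were also lower in Ga-H than in Ga-L. This is 14.1%, against 0.465% of all tested genes. Of the 2270 genes higher in Ga-H than in NM, 24 differed between Ga-H and Ga-L, against 305 of all 36323 tested genes. By direction 0.793% were higher and 0.264% lower in Ga-H, against 0.374% and 0.465% of all tested genes. The differences between Ga-H and Ga-L were tested as direct contrasts, which hold no NM library, in edgeR's quasi-likelihood test. Between Ga-H and Ri, 6 of the raised genes differed by the same test, and these were all 6 of the 36323 tested genes that did.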

How the results depend on the processing

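The number of genes higher in Ga-H than in NM ranged from 1790 (at least 2-fold) to 2732 (only the compared groups fitted), and from 1518 to 3073 with 1 library left out, always within 1.5 times of 2270. The 679 lower genes became 1098 with DESeq2, 1394 with only the compared groups fitted, 352 at 2-fold or more, and 270 to 1374 with 1 library left out. Both 3073 and 1374 were reached without Ri replicate 1, a library outside the comparison. Genes lower than both NM and Ga-L numbered 405 with DESeq2, 461 with only the compared groups fitted and 0 to 508 with 1 library left out. Raised genes that differed from Ga-L numbered 38 with library totals alone, 252 with DESeq2, 52 with limma on log2(FPKM + 1), 468 with only the compared groups fitted and 0 to 404 with 1 library left out. Genes that differed between Ga-H and Ri numbered 12 without the low-count filter, 265 with DESeq2, 42, 3 and 40 with limma at a pseudocount of 1, of 0.1 and without its filter, 2 with only the compared groups fitted and 0 to 2305 with 1 library left out. The causes were not tested.

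With the replicate number as a block, Ga-H had 2101 higher and 553 lower genes against NM, and the counts against Ga-L within raised and within lowered genes were both 0. The labels do not say that the numbers mark a pairing. Deviations from group means in same-numbered Ga-H and NM libraries correlated at -0.0539, -0.193 and 0.0196 across genes, and these libraries did not correlate best with their own number. The same check was not made between Ga-H and Ga-L, so it does not bear on the counts that became 0. From replicate 1 to 3 the lowered genes held 3.1%, 3.77% and 3.81% of counts in Ga-H. In Ga-L they held 4.63%, 5.95% and 6.52%, in the same order. Whether the numbers pair these libraries was not tested. The block changed no call of the genes given by ID.

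Glyma.09G092700.Wm82.a2.v1 differed from Ga-L with DESeq2 (log2 difference -0.9, adjusted p = 0.00899), and its log2 difference from Ri ran from -0.25 to 0.06 with 1 library left out, positive only without Ga-H replicate 1. Glyma.15G128700.Wm82.a2.v1 differed from Ga-L without the low-count filter (-1.6, adjusted p = 0.0483, edgeR), with DESeq2 (-1.61, 0.000152) and with only the compared groups fitted (-1.6, 0.0217), and its log2 difference ran from -1.87 to -1.43 with 1 library left out. The share of raised genes with a raised next neighbour was 10.2% without the low-count filter, 11.6% with DESeq2, 9.84% with limma without its filter and 11.2% to 15.5% with 1 library left out. For lowered genes it was 7.82% with only the compared groups fitted and 2.16% to 6.99% with 1 library left out. The share of all genes called also changed with the setting. These neighbour shares therefore cannot be read against the 6.25% and 1.87% of the main fit, nor as stronger or weaker grouping. At between 10182200 and 11054762 counts per library, changes in genes with few counts are the least certain.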
